A study of Mus musculus with 12 samples.

Results

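The mitochondrial ribosomal protein genes are the nuclear genes for the protein subunits of the ribosome inside mitochondria. They were taken here as every gene whose GENCODE vM21 symbol begins with Mrpl (large subunit) or Mrps (small subunit) followed by a number, with 5 pseudogenes left out. This rule found 78 genes among the 55421 gene rows of the table, all protein coding. Of these, 77 had counts, and Mrpl53 had 0 counts in every library.

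RNA sequencing counts were available for 12 libraries of 2 mouse lines, with 3 libraries in each of 4 groups. The groups were ID8 cells with rebastinib, ID8 cells labelled Control, PMJ2R cells with rebastinib and PMJ2R cells labelled Control. ID8 is an ovarian epithelial cancer line of C57BL6J wildtype genotype, and PMJ2R is a macrophage line from peritoneal lavage of a C57BL6J mouse that carries v-raf and v-myc oncogenes. Both lines are labelled female and carry no other stated modification, and each is a single immortalised line. Rebastinib, a kinase inhibitor used against the receptor Tie-2, was given at 5 nM for 6 h. The chemotherapy arms that the design also names are not analysed here, and neither the vehicle nor whether libraries came from separate cultures is stated. The p-values therefore measure the spread between these libraries, which may be technical.

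Mitochondrial ribosomes translate only the few proteins encoded by mitochondrial DNA, all of them subunits of the respiratory chain and ATP synthase. Their RNAs come from mitochondrial DNA, whereas every protein subunit is encoded in the nucleus, made in the cytosol and imported. Compared with bacterial ribosomes they have lost much RNA and gained mitochondria-specific proteins, so that their subunits divide into those with a bacterial counterpart and those without one. Nuclear respiratory factor 1 (NRF1), the ETS-family factor GABP and YY1 are known regulators of nuclear genes for mitochondrial proteins.

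The promoters show what these genes share in sequence. RefSeq promoter windows (build GRCm38.p6, 250 bases before to 50 after the start, 300 bases in all) were matched for 69 of the 78 genes. The windows for 6 genes are printed because these genes carry the results below: Mrps2 fell most in both lines, Mrps30 was the highest by fold change in PMJ2R cells, Mrpl12 moved in opposite directions in the 2 lines, Mrpl44 rose in both lines with no called difference between them, and Mrps18a and Mrps11 show the ETS and YY1 letters. They lie at chr2:28467816-28468115 (plus strand), chr13:118387203-118387502 (minus strand), chr11:120484387-120484686 (plus strand), chr1:79775768-79776067 (plus strand), chr17:46110754-46111053 (plus strand) and chr7:78782881-78783180 (plus strand), and are written 5′ to 3′ with matches to the NRF1, ETS and YY1 letters in capitals.
Mrps2: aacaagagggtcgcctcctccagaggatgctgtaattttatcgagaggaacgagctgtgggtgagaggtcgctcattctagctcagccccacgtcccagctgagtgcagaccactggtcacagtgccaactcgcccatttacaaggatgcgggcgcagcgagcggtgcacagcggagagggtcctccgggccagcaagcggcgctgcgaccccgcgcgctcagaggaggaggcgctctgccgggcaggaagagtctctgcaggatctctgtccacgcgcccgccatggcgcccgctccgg
Mrps30: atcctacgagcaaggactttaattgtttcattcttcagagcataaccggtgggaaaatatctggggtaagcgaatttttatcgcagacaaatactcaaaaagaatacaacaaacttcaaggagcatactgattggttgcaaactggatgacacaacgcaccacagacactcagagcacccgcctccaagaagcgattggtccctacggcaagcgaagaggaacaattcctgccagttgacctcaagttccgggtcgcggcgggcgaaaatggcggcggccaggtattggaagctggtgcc
Mrpl12: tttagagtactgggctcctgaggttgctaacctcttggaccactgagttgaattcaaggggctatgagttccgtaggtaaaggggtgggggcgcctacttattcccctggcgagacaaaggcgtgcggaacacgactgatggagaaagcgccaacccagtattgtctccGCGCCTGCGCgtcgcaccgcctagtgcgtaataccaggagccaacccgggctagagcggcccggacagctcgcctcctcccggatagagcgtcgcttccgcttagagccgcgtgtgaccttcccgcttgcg
Mrpl44: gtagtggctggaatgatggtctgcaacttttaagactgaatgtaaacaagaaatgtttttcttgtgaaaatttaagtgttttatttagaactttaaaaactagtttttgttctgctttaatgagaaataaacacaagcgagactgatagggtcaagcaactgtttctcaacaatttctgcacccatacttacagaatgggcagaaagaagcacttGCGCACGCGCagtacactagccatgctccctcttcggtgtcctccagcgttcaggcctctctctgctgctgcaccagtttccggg
Mrps18a: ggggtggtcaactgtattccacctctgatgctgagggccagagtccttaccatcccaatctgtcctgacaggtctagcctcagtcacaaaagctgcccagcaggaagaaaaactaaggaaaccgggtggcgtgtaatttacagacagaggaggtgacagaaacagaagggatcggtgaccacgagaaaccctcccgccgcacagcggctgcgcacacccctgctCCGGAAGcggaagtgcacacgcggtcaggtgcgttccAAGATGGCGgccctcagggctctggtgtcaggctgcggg
Mrps11: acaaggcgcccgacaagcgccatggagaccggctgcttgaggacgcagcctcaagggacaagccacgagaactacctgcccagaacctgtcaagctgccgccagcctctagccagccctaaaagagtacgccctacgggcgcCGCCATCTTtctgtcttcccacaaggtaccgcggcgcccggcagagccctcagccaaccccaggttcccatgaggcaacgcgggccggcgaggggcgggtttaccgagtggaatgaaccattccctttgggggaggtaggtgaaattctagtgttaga

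Exact letters were searched on both strands. The NRF1 letters, GCGCA then any base then GCGC, stood in 13 of the 69 promoters, which is 18.8%, against 6.85% of 16522 protein coding promoters and 4.78% of all 27025 promoters of the same length. The ETS letters CCGGAAG stood in 25, or 36.2%, against 12.3% of protein coding and 9.12% of all promoters. The YY1 letters AAGATGGCG stood in 8, or 11.6%, against 2.05% and 1.49% of the same 2 sets. At least 1 of these 3 motifs was in 40 of the 69 promoters (58.0%), against 19.2% of protein coding and 14.0% of all promoters. Other promoter letters were near the protein coding share or below it. The NFY letters CCAAT were in 39.1%, against 38.7% of protein coding promoters. The SP1 letters GGGCGG were in 49.3%, against 48.0% of protein coding promoters. The E-box letters CACGTG were in 7.25%, against 8.11%, and the TATA letters TATAAA in 5.8%, against 12.9% of protein coding promoters. Matches of different motifs overlapped in 2 promoters only, between ETS and SP1, and the median GC content was 58.3% in the 69 promoters and 57% in protein coding promoters.

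**Figure D1:**
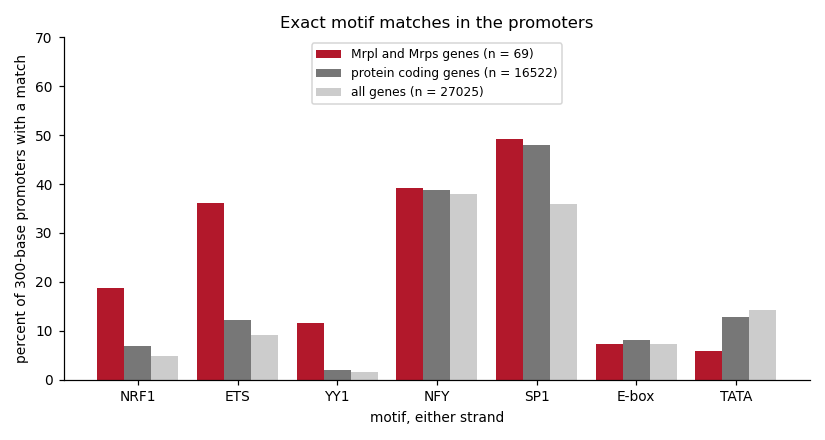
Percent of 300-base promoters with an exact match of each motif on either strand (y axis, from 0) for 7 motifs (x axis), in the 69 Mrpl and Mrps promoters (red), 16522 protein coding promoters (dark grey) and all 27025 promoters (light grey). The red bar is well above the grey bars for NRF1 (18.8%), ETS (36.2%) and YY1 (11.6%) and lies close to the dark grey bar or below it for the others.

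A motif match is a description of the letters and not of binding. With TMM scaling, described below, the median log2 fold change of rebastinib over control was 0.82 with the NRF1 letters and 0.86 without them in ID8 cells, and 0.38 with them and 0.24 without them in PMJ2R cells; none of these differences was tested. With and without the ETS letters the medians were 0.85 and 0.87 in ID8 cells, and 0.22 and 0.29 in PMJ2R cells. The genes with YY1 letters, only 8, had medians of 1.02 in ID8 and 0.43 in PMJ2R cells, against 0.84 and 0.24 without them. None of the 3 motifs was in the windows of Mrps2, which fell, or of Mrps30, which rose. Mrpl17, which also fell in both lines, had 1 NRF1 and 1 ETS match.

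The libraries held between 19025504 and 27070556 counts, and the 78 genes together between 73502 and 129579. All 10 macrophage markers had 1 CPM (counts scaled to library size) or more in PMJ2R groups, and 8 of 10 were below 1 CPM in ID8 groups, with 6 at 0. Rebastinib libraries differed from control libraries across the whole table. Genes overlapping ribosomal RNA took 1.05 to 1.60% of counts in rebastinib and 0.106 to 0.355% in control ID8 libraries, and 5.63 to 5.99% in rebastinib and 0.0927 to 0.172% in control PMJ2R libraries. Of all genes tested, 80.4% were called different in ID8 and 83.7% in PMJ2R cells, and these shares are the background for the counts that follow. The labels give no batch, so the handling of the libraries and the treatment cannot be told apart, and in bulk RNA a change in how much RNA a cell holds cannot be told apart from a change in these genes.

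Levels spanned a wide range within the set. Per length (TPM, counts scaled to transcript length and library, on 1 representative transcript a gene), the genes with counts had a median of 59.7 in ID8 rebastinib, 66.0 in ID8 control, 48.3 in PMJ2R rebastinib and 71.5 TPM in PMJ2R control libraries. The median coefficient of variation between 3 libraries was 4.69%, 4.28%, 3.36% and 5.14% in the same 4 groups. Mrpl42 had the highest TPM in both PMJ2R groups, at 495.5 ± 8.43 with rebastinib and 619 ± 26.0 in control cells (SD, n = 3 each). Mrps2, counterpart of bacterial S2, had the lowest TPM of the 77 in ID8 rebastinib libraries, at 5.42 ± 0.318. Mrpl12, the stalk protein that contacts translation factors, was among the 3 highest in both control groups, with 244 ± 10.8 TPM in ID8 and 314 ± 12.4 TPM in PMJ2R cells. The rank of Mrpl42 depended on the transcript: with the union of exons as length it ranked 6 in rebastinib and 10 in control PMJ2R cells. Mrpl12 then moved from 3 to 1 in ID8 control cells and stayed at 2 in PMJ2R control cells. Mrps2 stayed lowest in ID8 rebastinib libraries.

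Mrpl53 (chromosome 6, a large subunit protein of the stalk base region without a bacterial counterpart) could not be measured. The limit that a count of 0 allows by counting error was taken as 3 counts over the 3 libraries of a group together. This was 0.0460 CPM in ID8 rebastinib, 0.0443 in ID8 control, 0.0514 in PMJ2R rebastinib and 0.0398 CPM in PMJ2R control cells. It covers only reads that could be assigned to Mrpl53. Of the Mrpl53 exon bases, 695 (88.0%) are shared with Gm42688 on the same strand, which had 411 counts in all 12 libraries. Reads in such bases may be assigned to neither gene, so the absence of counts does not show absence of the RNA. For the same reason the limits above do not bound its level.

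In ID8 cells most of these genes were higher with rebastinib. By edgeR's quasi-likelihood test with Benjamini-Hochberg adjustment over all genes at 0.05, 64 of the 77 rose, 2 fell (Mrps2 and Mrpl17) and 11 were not called, where 38.4% of all 14829 genes tested were called higher and 42.0% lower. The median log2 fold change of the genes was 0.90, against -0.07 over all genes tested. At least a 2-fold rise was seen in 34 genes and a 2-fold fall in 1, beside 15.6% and 24.4% of all genes. Values are CPM scaled by the trimmed mean of M values (TMM), which assumes that most genes do not change. With library totals as the only scaling the median of all genes was -0.50, and 53 of the genes rose and 14 fell, with a median of 0.46, beside 23.9% of all genes called higher and 57.2% lower. The count of 2-fold rises was then 6, beside 7.34% of all genes, and that of 2-fold falls 1. Relative to the median of all genes, the genes stood 0.96 higher under both scalings, and 0.58 higher after length and GC trends were removed. Of the 77, 73 lay above it, and 65 after that removal.

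The same genes moved less, and in a mixed way, in PMJ2R cells. With TMM scaling 48 of 77 rose, 20 fell and 9 were not called by edgeR, where 40.1% of all 14010 genes tested were called higher and 43.6% lower; with library totals the split turned to 16 higher and 46 lower, close to the 22.2% and 61.9% of all genes under that scaling. The median was 0.29 against -0.05 over all genes, and with library totals -0.27 against -0.60, a distance of 0.33 with 53 of 77 above the all-gene median. After length and GC trends were removed the distance was 0.22, with 43 of 77 above it. With TMM scaling a 2-fold rise was called in 6 and a 2-fold fall in 6, beside 15.6% and 25.7% of all genes, and with library totals in 0 and 13, beside 6.26% and 38.7%.

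**Figure D2:**
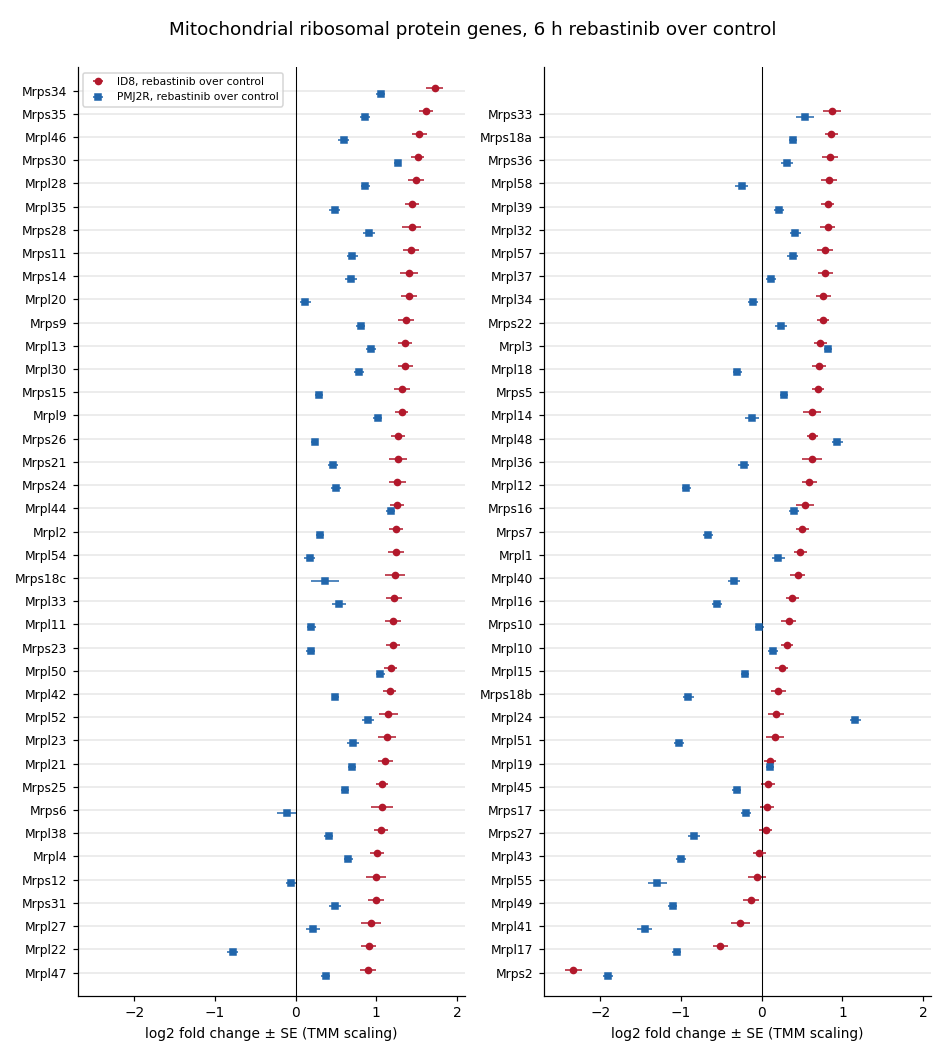
Log2 fold change of rebastinib over control with its standard error (x axis, TMM scaling) for each of the 77 genes with counts (rows, ordered by the ID8 value, left column then right), in ID8 (red circles) and PMJ2R cells (blue squares), 3 libraries a group. The red points lie right of 0 for most genes and the blue points lie left of the red ones in nearly every row, with Mrps2 at the far left in both; with library totals as scaling every ID8 point moves left by about the shift of the all-gene median, from -0.07 to -0.50, and more PMJ2R genes lie left of 0 (46 called lower) than right of it (16 called higher).

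The large subunit accounted for 51 of the 78 genes, the small subunit for 26, and Mrps36 stood in neither. In ID8 cells 41 of 50 large subunit genes with counts rose and 1 fell, with a median log2 fold change of 0.83, and 22 of 26 small subunit genes rose and 1 fell, with a median of 1.07. In PMJ2R cells 30 large subunit genes rose and 15 fell (median 0.21), and 17 small subunit genes rose and 5 fell (median 0.33); with library totals these counts became 12 and 31, and 4 and 14. The background is the share of all genes given above for each line and scaling. After length and GC trends were removed the large and small subunit medians were 0.476 and 0.481 in ID8 cells, so they hardly differed. In PMJ2R cells they were then 0.13 and -0.03, with the small subunit lower. By origin, in ID8 cells the 47 genes with a bacterial counterpart had a median of 0.90 and the 28 measured mitochondria-specific genes 0.93. In PMJ2R cells these medians were 0.29 and 0.31. With length and GC trends removed they parted to 0.435 and 0.610 in ID8 cells, and were 0.0990 and 0.0865 in PMJ2R cells. These differences were not tested.

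As a share of all counts, the genes together took 0.483% ± 0.0317 in ID8 rebastinib and 0.357% ± 0.0185 in ID8 control libraries (SD, n = 3 each). In PMJ2R cells they took 0.389% ± 0.00343 with rebastinib and 0.483% ± 0.0149 in control libraries. The share was thus higher with rebastinib in ID8 and lower in PMJ2R cells, with no overlap between groups in either line, and p was 0.1 in each by two-sided exact permutation, the smallest that 3 libraries against 3 allow. The per-length ratio of small to large subunit transcripts was 0.420 ± 0.00666 in ID8 rebastinib and 0.390 ± 0.00256 in ID8 control libraries, also without overlap (exact permutation p = 0.1). In PMJ2R cells it was 0.389 ± 0.000627 with rebastinib and 0.389 ± 0.000905 in control libraries, which overlapped (exact permutation p = 0.7).

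Mrps2 fell most in both lines. It encodes the small subunit counterpart of bacterial S2 and lies on chromosome 2 from 28468066 to 28471178 (GRCm38), with 4 exons in the transcript used. In ID8 cells it had 9.07, 7.75 and 6.89 CPM with rebastinib, against 39.7, 38.1 and 41.1 CPM in control libraries. Every rebastinib library lay below every control library. The log2 fold change was -2.33 ± 0.107 (SE), 5.04-fold lower, with an edgeR adjusted p of 1.67e-10. In PMJ2R cells it had 30.9, 26.7 and 27.7 CPM with rebastinib, against 102, 105 and 112 CPM in control libraries. The groups again did not overlap, with a log2 fold change of -1.90 ± 0.0639 (edgeR adjusted p = 1.05e-14). Its fall was smaller in PMJ2R than in ID8 cells by 0.38 ± 0.127 on the log2 scale (edgeR adjusted p = 0.0157).

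Mrpl17, counterpart of bacterial L17 in the large subunit, was the other gene that fell in both lines. It had 42.4, 42.6 and 34.5 CPM in ID8 rebastinib and 55.1, 54.6 and 60.0 CPM in ID8 control libraries, without overlap, for a log2 fold change of -0.51 ± 0.0908 (edgeR adjusted p = 1.23e-04). In PMJ2R cells the values were 37.4, 34.4 and 33.8 CPM with rebastinib and 74.1, 74.3 and 70.8 CPM in controls, for a log2 fold change of -1.05 ± 0.0591 (edgeR adjusted p = 1.00e-11). The ID8 fall was not called after length and GC trends were removed (-0.18), whereas the PMJ2R fall was (-1.07). The transcript used for Mrpl17 is 7300 bases long.

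Among the genes that rose in ID8 cells, Mrps34, Mrps35 and Mrpl46 had the 3 highest fold changes. Mrps35, a mitochondria-specific small subunit protein, had 113, 97.4 and 89.6 CPM with rebastinib, against 32.2, 32.3 and 33.1 CPM in control libraries. The lowest rebastinib library was well above the highest control, and the log2 fold change was 1.62 ± 0.0878 (edgeR adjusted p = 7.82e-10). Mrps34, also mitochondria-specific and needed for small subunit stability, had 186, 145 and 134 CPM with rebastinib, against 46.2, 45.3 and 49.2 CPM in controls, for a log2 fold change of 1.73 ± 0.105 (edgeR adjusted p = 2.41e-09). This value is uncertain. Of the Mrps34 exon bases 63.4% are shared with Mapk8ip3 on the opposite strand, itself higher by 1.30. The labels do not state whether counting used strand. Another gene, Nme3, shares 37.0% of the Mrps34 exon bases on the same strand and had 3 counts in all 12 libraries. Reads there may be assigned to neither gene under any strand setting.

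Mrps30 was among the 6 rising genes with the smallest p in each line. It is a mitochondria-specific protein that was named with the small subunit but stands in the large subunit in ribosome structures. In ID8 cells it had 117, 116 and 102 CPM with rebastinib, against 40.3, 37.6 and 39.3 CPM in control libraries. In PMJ2R cells it had 159, 155 and 150 CPM with rebastinib, against 62.7, 65.3 and 65.2 CPM in controls. No groups overlapped. The log2 fold changes were 1.51 ± 0.0774 in ID8 (edgeR adjusted p = 4.53e-10) and 1.26 ± 0.0486 in PMJ2R cells (edgeR adjusted p = 6.05e-14). Of its exon bases 9.35% are shared with B430218F22Rik on the opposite strand, which rose by 1.11 in ID8 and 1.53 in PMJ2R cells.

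Mrpl44, an RNase III-like large subunit protein, and Mrpl9, counterpart of bacterial L9, also rose in both lines. Mrpl44 had 55.5, 53.1 and 46.9 CPM in ID8 rebastinib, against 20.3, 22.2 and 22.7 CPM in ID8 control libraries, a log2 fold change of 1.25 ± 0.0888 (edgeR adjusted p = 1.04e-08). In PMJ2R cells it had 73.8, 76.4 and 72.9 CPM with rebastinib, against 32.7, 34.5 and 31.4 CPM in controls, a log2 fold change of 1.18 ± 0.0579 (edgeR adjusted p = 1.55e-12). The difference between the lines' responses was -0.13 ± 0.105 and not called (edgeR adjusted p = 0.321). Mrpl9 rose by 1.31 ± 0.0771 in ID8 and 1.02 ± 0.0575 in PMJ2R cells. Mrpl44 shares 7.66% of its exon bases with Wdfy1 and Mrpl9 shares 5.81% with Oaz3, both on the opposite strand. Wdfy1 rose by 1.205 in ID8 and 0.782 in PMJ2R cells, and Oaz3 by 0.757 and 1.101.

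Mrpl46 and Mrps11 are neighbours on chromosome 7 on opposite strands, and their starts overlap by 412 bases. In ID8 cells Mrps11, counterpart of bacterial S11, had 54.3, 51.7 and 41.9 CPM with rebastinib, against 18.1, 17.9 and 18.6 CPM in controls. Mrpl46, a mitochondria-specific protein, had 52.4, 45.3 and 42.0 CPM with rebastinib, against 15.7, 16.2 and 16.2 CPM in controls. In ID8 cells Mrps11 rose by 1.43 ± 0.101 and Mrpl46 by 1.53 ± 0.0955. In PMJ2R cells the rises were 0.70 ± 0.0695 and 0.60 ± 0.0683 with TMM scaling, and with library totals the values were 0.14 and 0.04 and not called. They share 173 exon bases, so their counts are not fully separate if strand was not used. Across all genes of the set with another tested gene starting head to head within 1000 bases, 13 of 32 pairs moved in the same direction in ID8 cells, 10 in opposite directions and 9 were not both called. In PMJ2R cells these numbers were 16, 10 and 5 of 31. They are with TMM scaling, and the shares among other gene pairs were not computed. Some partners share exon bases with the gene, as Twnk does with Mrpl43, and the Mrpl46 and Mrps11 pair is counted from each side.

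**Figure D3:**
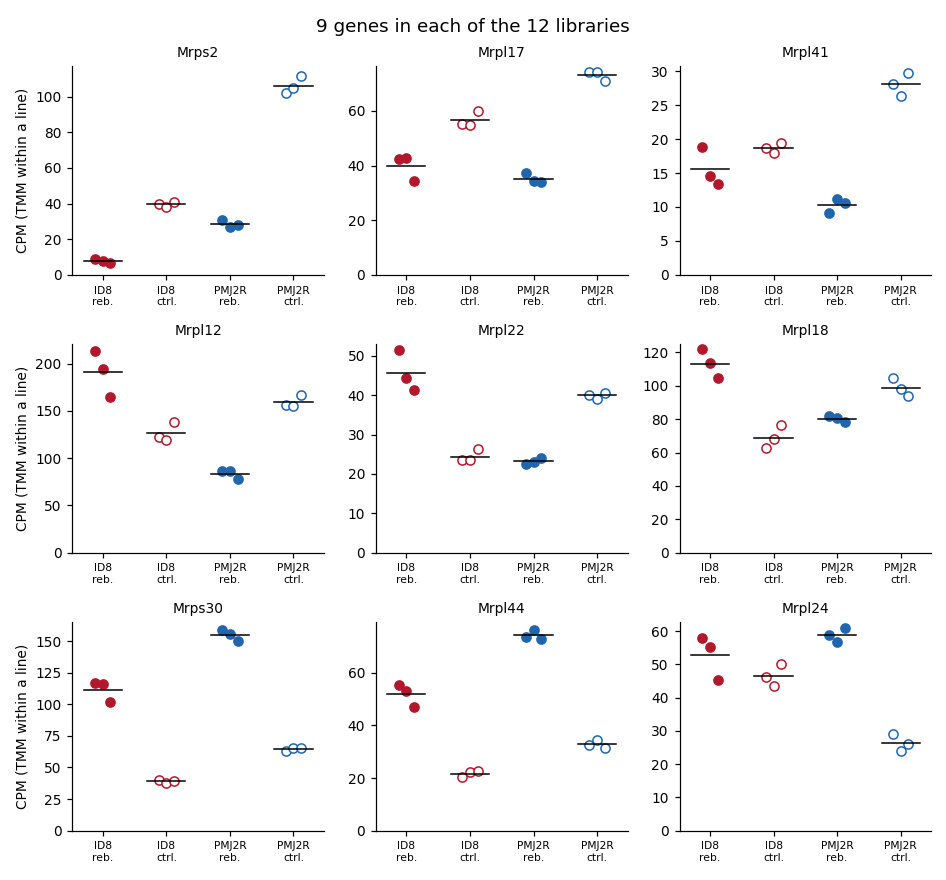
TMM-scaled CPM (y axis, from 0) of 9 genes in each of the 12 libraries: ID8 rebastinib (filled red), ID8 control (open red), PMJ2R rebastinib (filled blue) and PMJ2R control (open blue), with a bar at each mean of 3. Scaling was done within a line, so heights compare within a colour. Mrps2 and Mrpl17 are lower with rebastinib in both lines, Mrpl12, Mrpl22 and Mrpl18 are higher in ID8 and lower in PMJ2R cells, and Mrps30 and Mrpl44 are higher in both; with library totals as scaling none of these 7 genes changes sign, but the ID8 value of Mrpl12 (0.15) is no longer called.

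The calls of the 2 lines combine in the following way. With TMM scaling 47 of the 77 genes rose in both lines, 2 fell in both, 9 rose in ID8 and fell in PMJ2R cells, 8 rose in ID8 and were not called in PMJ2R cells, and 9 were not called in ID8 and fell in PMJ2R cells. Over the 12398 genes tested in both lines these classes held 29.9%, 30.2%, 5.58%, 5.88% and 7.42%. Only Mrpl24 rose in PMJ2R cells without a call in ID8 cells, and only Mrpl19 was called in neither. The 9 that parted were Mrpl12, Mrpl15, Mrpl16, Mrpl18, Mrpl22, Mrpl36, Mrpl40, Mrpl58 and Mrps7. With library totals 15 rose in both, 13 fell in both and 23 rose in ID8 and fell in PMJ2R cells, beside 13.6%, 46.5% and 6.03% of all genes, and among the 23 only Mrpl18, Mrpl22 and Mrpl58 were of those 9. Across the 77 genes the log2 fold changes of the lines had a Pearson r of 0.778 and a Spearman rho of 0.722, against 0.703 for each over the 12398 genes tested in both. These are descriptions across genes, which share libraries within a line and are not independent.

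The response itself differed between the lines for most of the genes. In a fit of all 12 libraries, the log2 fold change was lower in PMJ2R than in ID8 cells for 67 of the 77, higher for 3 and not called for 7 by edgeR, where 30.6% of all 16566 genes tested were called lower and 21.8% higher. The median difference, PMJ2R minus ID8, was -0.73, against -0.10 over all genes tested. Of these, 20 differed by 2-fold or more in the lower direction and 0 in the higher one, beside 11.5% and 11.0% of all genes. With library totals the median difference was -0.79 against -0.17 over all genes.

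**Figure D4:**
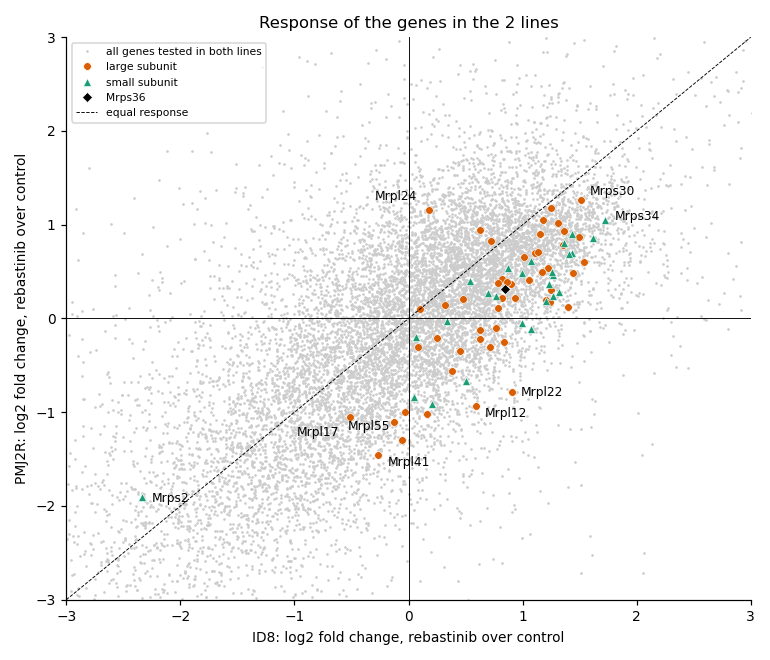
Log2 fold change of rebastinib over control in PMJ2R cells (y axis) against that in ID8 cells (x axis), TMM scaling, for large subunit genes (orange circles), small subunit genes (green triangles), Mrps36 (black diamond) and all 12398 genes tested in both lines (grey dots), of which 689 lie outside the axes. The dashed line marks equal responses: most coloured points lie below it, and Mrpl24 stands well above it. With library totals as scaling the points move left and down by the shift of the all-gene median, and the PMJ2R split becomes 16 higher and 46 lower.

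Mrpl22, counterpart of a bacterial protein that lines the exit tunnel, differed most. It had 51.5, 44.3 and 41.4 CPM in ID8 rebastinib, against 23.4, 23.5 and 26.2 CPM in ID8 control libraries. In PMJ2R cells it had 22.6, 22.9 and 24.2 CPM with rebastinib, against 40.1, 39.1 and 40.6 CPM in controls. It was thus higher with rebastinib in every ID8 library and lower in every PMJ2R library. The log2 fold changes were 0.90 ± 0.0955 and -0.78 ± 0.0655, and the difference was -1.74 ± 0.119 (edgeR adjusted p = 2.71e-11). A processed pseudogene, Gm6997, is 97.1% identical to it over 621 bases, so reads shared with that copy could be lost or split.

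Mrpl12 differed next. In ID8 cells it had 214, 195 and 165 CPM with rebastinib, against 122, 119 and 139 CPM in control libraries, and in PMJ2R cells 86.3, 86.3 and 77.8 CPM with rebastinib, against 156, 155 and 167 CPM in controls. The groups did not overlap in either line. It rose by 0.59 ± 0.0931 in ID8 cells (edgeR adjusted p = 3.94e-05) and fell by 0.93 ± 0.0541 in PMJ2R cells (edgeR adjusted p = 1.61e-11), a difference of -1.58 ± 0.116; with library totals the ID8 value was 0.15 and not called, and the PMJ2R value -1.49. Of its exon bases 200 (13.1%) are shared with Gm16755, a long non-coding RNA gene on the opposite strand that is not analysed here.

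Mrpl20, counterpart of bacterial L20, came next at -1.34, before Mrpl55, Mrpl51, Mrpl41, Mrps6 and Mrps7, counterpart of bacterial S7, at -1.23. Mrpl20 rose by 1.40 ± 0.0993 in ID8 cells, and in PMJ2R cells had 74.6, 72.9 and 73.3 CPM with rebastinib, against 74.5, 68.8 and 60.2 CPM in controls, which overlapped (log2 fold change 0.12 ± 0.0664, edgeR adjusted p = 0.106; -0.44 with library totals). Mrps7 rose by 0.50 ± 0.0844 in ID8 and fell by 0.66 ± 0.0604 in PMJ2R cells, with an ID8 value of 0.07, not called, under library totals. It shares exon bases on opposite strands with Gga3 and Mif4gd, which were -2.29 and -1.25 in PMJ2R cells. Mrps26 and Mrps23, mitochondria-specific small subunit proteins, rose in both lines with TMM scaling, and in PMJ2R cells their values turned to -0.32 and -0.37 with library totals. Their differences between the lines were -1.09 ± 0.0997 and -1.08 ± 0.104.

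Only Mrpl24, Mrps2 and Mrpl48 had a response that was higher in PMJ2R than in ID8 cells. Mrpl24, counterpart of a bacterial protein near the tunnel exit, had 58.8, 56.7 and 60.8 CPM in PMJ2R rebastinib, against 29.1, 23.9 and 26.0 CPM in PMJ2R control libraries. In ID8 cells it had 58.0, 55.1 and 45.3 CPM with rebastinib, against 46.2, 43.5 and 50.1 CPM in controls, which overlapped. The log2 fold changes were 1.16 ± 0.0714 in PMJ2R (edgeR adjusted p = 3.68e-11) and 0.18 ± 0.0959 in ID8 cells (edgeR adjusted p = 0.102), and the difference was 0.93 ± 0.126 (edgeR adjusted p = 1.30e-06). Of its exon bases 26.3% are shared with Rrnad1 on the opposite strand, whose log2 fold change was -0.03 in PMJ2R cells. With library totals the ID8 value of Mrpl24 turned to -0.26. Mrpl48 rose in both lines, by 0.94 ± 0.0719 in PMJ2R and 0.63 ± 0.0707 in ID8 cells, a difference of 0.26 ± 0.101 (edgeR adjusted p = 0.0381) that was not called with library totals (0.19). Of its exon bases 8.68% are shared with Rab6a on the opposite strand, which was 1.28 in PMJ2R and 0.16 in ID8 cells, and the pseudogene Mrpl48-ps is 98.1% identical to it over 636 bases.

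Among the 9 genes that fell in PMJ2R cells and were not called in ID8 cells, 5 large subunit genes had the largest falls. Mrpl41, which has also been reported to act in apoptosis, had 9.07, 11.1 and 10.6 CPM in PMJ2R rebastinib, against 28.2, 26.4 and 29.7 CPM in PMJ2R control libraries, a log2 fold change of -1.45 ± 0.0909 (edgeR adjusted p = 4.73e-11). In ID8 cells it had 18.9, 14.5 and 13.3 CPM with rebastinib, against 18.7, 17.9 and 19.4 CPM in controls, which overlapped (-0.26 ± 0.121, edgeR adjusted p = 0.0563). Mrpl55 had a PMJ2R log2 fold change of -1.29 ± 0.118, Mrpl49 of -1.10 ± 0.0550, Mrpl51 of -1.02 ± 0.0596 and Mrpl43 of -0.999 ± 0.0608. The last shares 33.4% of its exon bases with Twnk on the opposite strand, which was -1.76 in PMJ2R cells, and Mrpl41 and Mrpl51 have processed pseudogene copies. With library totals all 9 were called lower in ID8 cells too, among them Mrpl41 (-0.70), Mrpl49 (-0.57), Mrpl55 (-0.50), Mrpl43 (-0.47) and Mrpl51 (-0.27), so the class holds with TMM scaling only.

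Mrpl10, Mrpl11 and Mrpl12 belong to the stalk of the large subunit and its base. Mrpl10, which anchors Mrpl12 to the ribosome, rose in ID8 cells by 0.32 ± 0.0737 and in PMJ2R cells by 0.15 ± 0.0623 with TMM scaling, but its sign turned to -0.12 and -0.41 with library totals. Mrpl11, at the stalk base, rose by 1.21 ± 0.10 in ID8 cells, with 112, 93.9 and 85.9 CPM with rebastinib against 37.8, 42.8 and 45.5 CPM in controls. In PMJ2R cells it rose by 0.20 ± 0.0562 with TMM scaling, and was -0.36 with library totals. Mrpl12 fell there under both scalings.

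Genes for proteins with distinct roles followed. Mrps12, in the decoding centre, rose by 1.00 ± 0.122 in ID8 cells, and in PMJ2R cells had 34.0, 34.8 and 33.1 CPM with rebastinib against 35.9, 34.4 and 35.4 CPM in controls, with overlap and no call (-0.05 ± 0.0621; -0.61 and called lower with library totals). Mrpl58, a peptidyl-tRNA hydrolase that can rescue stalled ribosomes, rose by 0.84 ± 0.0972 in ID8 and fell by 0.25 ± 0.0843 in PMJ2R cells. Mrpl45, which lies at the tunnel exit by the inner membrane, was 0.08 ± 0.0859 in ID8 cells, without a call and -0.35 with library totals, and fell by 0.31 ± 0.0563 in PMJ2R cells. Mrps36, now known as a subunit of the 2-oxoglutarate dehydrogenase complex and absent from ribosome structures, rose by 0.85 ± 0.103 in ID8 and 0.31 ± 0.0777 in PMJ2R cells with TMM scaling, with the PMJ2R sign turned to -0.25 by library totals and -0.39 by removal of length and GC trends. Mrps36 also has 4 near-identical processed pseudogenes.

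The 3 Mrps18 paralogues, which are thought to descend from a single bacterial S18-like ancestor and of which Mrps18a stands in the large subunit, took different courses. Mrps18a had 67.7, 58.4 and 57.6 CPM in ID8 rebastinib, against 33.7, 32.9 and 34.3 CPM in ID8 controls, and rose by 0.86 ± 0.0821. Its rise in PMJ2R cells was 0.39 ± 0.0519 with TMM scaling, and the value was -0.17 with library totals. Mrps18b was 0.21 ± 0.0907 in ID8 cells, just short of a call (edgeR adjusted p = 0.0502) and -0.23 with library totals, and fell by 0.91 ± 0.0692 in PMJ2R cells. Mrps18c rose by 1.23 ± 0.125 in ID8 cells and was 0.37 ± 0.169 in PMJ2R cells, where its 3 libraries a group overlapped (edgeR adjusted p = 0.0552; -0.19 with library totals). Mrps18b shares 30.5% of its exon bases with the opposite-strand gene Gm16279 and has a pseudogene copy that is 99.8% identical over 417 bases.

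With rebastinib more of the genes were lower than higher in PMJ2R relative to ID8 cells, and in control cells more were higher. In rebastinib cells 20 of 77 were higher in PMJ2R, 42 lower and 15 not called by edgeR, where 82.5% of all 14496 genes tested were called, 39.9% higher and 42.6% lower (median -0.23, against -0.03 over all genes). In control cells 45 were higher in PMJ2R, 20 lower and 12 not called, where 82.3% of all 15924 genes tested were called, 39.4% higher and 42.9% lower (median 0.31, against -0.03). Both comparisons rest on the same lines and on libraries already used for the treatment response. With 1 line of each kind, the values describe these lines and not cell types.

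Mrpl36, Mrps2 and Mrpl3 stood highest in PMJ2R relative to ID8 control cells. Mrpl36, counterpart of bacterial L36, had 83.9, 80.4 and 73.4 CPM in PMJ2R control, against 28.4, 26.4 and 31.6 CPM in ID8 control libraries (log2 fold change 1.46 ± 0.0756, edgeR adjusted p = 4.03e-13). Mrpl3, counterpart of bacterial L3, had 123, 115 and 114 CPM in PMJ2R control, against 44.4, 43.0 and 46.4 CPM in ID8 control libraries (1.39 ± 0.0631). Mrpl58 stood lowest in control cells, with 19.1, 18.9 and 21.0 CPM in PMJ2R, against 39.9, 37.9 and 41.9 CPM in ID8 libraries (-1.02 ± 0.0736). In rebastinib cells Mrpl55 stood lowest at -2.04 ± 0.149, and Mrpl58 next at -1.99 ± 0.107, while Mrps2 stood highest at 1.95 ± 0.120 and Mrpl3 next at 1.60 ± 0.0662.

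The order of the lines switched for 13 genes. Lower in PMJ2R than in ID8 cells with rebastinib and higher in control cells were 12: Mrpl11, Mrpl12, Mrpl16, Mrpl18, Mrpl20, Mrpl22, Mrpl41, Mrpl43, Mrpl46, Mrps11, Mrps12 and Mrps18b. Mrpl24 alone switched the other way, at 0.25 ± 0.0907 in rebastinib and -0.85 ± 0.0766 in control cells, and its value in rebastinib cells was 0.10 and not called with library totals (edgeR adjusted p = 0.294). Another 19 were higher in PMJ2R in both conditions, among them Mrps30 (0.57 in rebastinib and 0.70 in control cells) and Mrpl44 (0.62 in rebastinib and 0.58 in control cells). A further 19 were lower in both. The share of all genes in these combined classes was not computed, so whether 13 switches are unusual cannot be said.

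Other genes of mitochondrial translation give the surroundings, and their counts are to be read against the same all-gene shares: 38.4% higher and 42.0% lower in ID8 and 40.1% and 43.6% in PMJ2R cells with TMM scaling, and 23.9% and 57.2%, and 22.2% and 61.9%, with library totals. The 5 mitochondrial ribosome proteins with other names (Dap3, Ptcd3, Aurkaip1, Chchd1 and Gadd45gip1) all rose in ID8 cells (median 0.91), and 4 of 5 rose in PMJ2R cells with TMM scaling (median 0.45) where library totals gave 0 higher and 2 lower. Dap3, a GTP-binding small subunit protein, rose by 0.91 ± 0.0836 in ID8 and 0.55 ± 0.0560 in PMJ2R cells with TMM scaling, and was -0.01 in PMJ2R cells with library totals. Of 25 ribosome assembly factors 9 rose and 11 fell in ID8 cells (median -0.04), and 5 rose and 16 fell in PMJ2R cells (median -0.56), against 6 and 14, and 3 and 20, with library totals. The ID8 counts of the assembly factors are near the background. C1qbp and Ngrn were among the risers, by 1.41 ± 0.0696 and 2.05 ± 0.0961 in ID8 and 1.02 ± 0.0445 and 1.07 ± 0.0756 in PMJ2R cells. They do not stand for the list, in which more genes fell than rose in each line.

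Of 15 mitochondrial translation factors 8 rose and 5 fell in ID8 cells (median 0.50), and 7 rose and 6 fell in PMJ2R cells (median -0.04), against 7 and 7, and 4 and 9, with library totals. Mtif2, the initiation factor, was -2.48 ± 0.102 in ID8 and -2.36 ± 0.0957 in PMJ2R cells, while the elongation factor Tufm was 0.98 ± 0.0772 and 0.76 ± 0.0450 in the same 2 lines. Of 20 mitochondrial aminoacyl-tRNA synthetase genes 5 rose and 7 fell in ID8 (median -0.05), and 7 rose and 12 fell in PMJ2R cells (median -0.43), against 2 and 14, and 2 and 16, with library totals. Of 13 regulators of mitochondrial transcription and biogenesis 6 rose and 4 fell in ID8 cells (median 0.16). Of 12 tested in PMJ2R cells 4 rose and 7 fell (median -0.49). With library totals the counts were 3 and 6 in ID8 and 3 and 9 in PMJ2R cells. The regulators named next rose in both lines and do not stand for the list. Yy1 rose by 1.05 ± 0.0719 in ID8 and 1.61 ± 0.0477 in PMJ2R cells, Nrf1 by 0.50 ± 0.0706 and 0.84 ± 0.0575, and Gabpb1 by 0.52 ± 0.0801 and 0.90 ± 0.0620. With library totals Nrf1 was 0.07 in ID8 and 0.28 in PMJ2R cells, and Gabpb1 0.08 and 0.34.

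Cytosolic ribosomal protein genes rose in 79 of 80 tested in each line, with medians of 1.43 in ID8 and 1.06 in PMJ2R cells, and 78 and 74 rose with library totals. The exception, Rpl7l1, is a ribosome assembly protein with a ribosomal protein's name. Mitochondrially encoded protein genes rose in 12 of 13 tested in ID8 (median 1.48) and 12 of 12 in PMJ2R cells (median 1.22). With library totals 11 rose in each line, and after length and GC trends were removed 10 rose in ID8 (median 0.54) and 5 in PMJ2R cells (median 0.43). The median of the mitochondrial ribosomal protein genes, 0.90 in ID8 and 0.29 in PMJ2R cells, lay below both of these lists and above the assembly factors in each line.

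**Figure D5:**
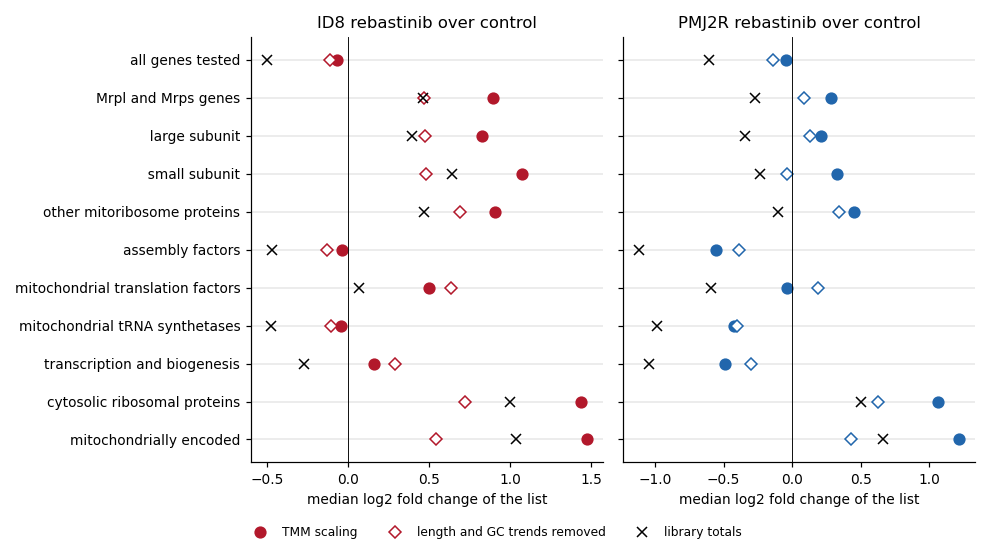
Median log2 fold change of rebastinib over control (x axis) for all genes tested, the Mrpl and Mrps genes, their subunits and 7 related lists (rows), in ID8 (left) and PMJ2R cells (right), with TMM scaling (filled circles), after removal of length and GC trends (open diamonds) and with library totals only (crosses). The crosses lie left of the circles in every row, and in PMJ2R cells the cross of the Mrpl and Mrps genes is at -0.27 where its circle is at 0.29, beside all-gene medians of -0.60 and -0.05.

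Transcript length moved with the response over the whole table. GC content hardly did, with a Pearson r over all genes tested of 0.005 in ID8 and -0.083 in PMJ2R cells. Over all genes tested in ID8 cells the log2 fold change had a Pearson r of -0.272 with log2 transcript length, and over the 77 genes -0.218; in PMJ2R cells these were -0.185 and -0.0202. After per-library trends with length and GC content were removed, 56 of the 77 rose and 11 fell in ID8 cells, with a median of 0.47 against -0.11 over all genes, of which 37.1% were called higher and 44.5% lower. In PMJ2R cells 37 rose and 34 fell, with a median of 0.09 against -0.14; 37.3% of all genes were called higher and 45.5% lower, so the lower count is near the background. The difference between the lines' responses remained lower in PMJ2R cells for 62 genes and higher for 2, beside 30.2% and 22.2% of all genes, with a median of -0.54. What part of the response lies in RNA quality or library composition was not tested.

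Shared sequence touched many of the genes. An exon overlapped another gene's exon in 33, and 18 had a pseudogene copy of at least 200 bases at 95% identity or more, 44 with either. Among the 34 with neither, 29 rose and 2 fell in ID8 cells with TMM scaling (median 1.00), beside 38.4% and 42.0% of all genes. In PMJ2R cells 22 rose and 8 fell (median 0.23), beside 40.1% and 43.6% of all genes. After length and GC trends were removed 26 rose and 4 fell in ID8 cells, beside 37.1% and 44.5% of all genes. In PMJ2R cells 17 then rose and 13 fell, beside 37.3% and 45.5%. The 5 pseudogenes left out held between 0.0196% and 0.170% of the counts of the set in any library.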

How the data were processed

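The deposited table holds raw read counts per Ensembl gene for 12 libraries. Per the submitters' processing notes, the authors' tools were FastQC, STAR 2.6.1c, featureCounts and DESeq2 with genome GRCm38; no annotation, strand setting or rule for reads shared between genes was given in the sources used here. IDs were paired with GENCODE vM21 symbols, and 181 of 55421 had none (0.00261% of counts). The 78 genes, the other lists and the tests were chosen with earlier results of these data known.

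Each comparison was fitted over all genes with edgeR 4.0.16 (limma 3.58.1, R 4.3.3): TMM scaling, filterByExpr, robust quasi-likelihood F tests, Benjamini-Hochberg adjustment, threshold 0.05; the standard error is the log2 fold change divided by the root of F. Treatment was fitted within a line, lines within a condition, and the difference of responses over 12 libraries. CPM are TMM-scaled within the libraries compared. TPM used 1 transcript a gene (APPRIS principal where given). Shares and ratios over libraries had exact two-sided permutation tests (scipy 1.17.1). Pseudogene copies were found with blastn 2.17.0. The fit was run on simulated data in which few genes changed. Of 2-fold changes 93.8 to 98.4% were recovered, and 1.84 to 6.19% of calls were false. This does not test the fit where most genes differ, as they do here. Floors cover counting error only.

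Named in each comparison were up to 6 genes a direction with the smallest p, the 3 highest and 3 lowest fold changes, up to 8 called against the majority, and a fixed list of genes with known roles. Mrpl18, Mrpl28, Mrpl46 with Mrps11 and other members outside this rule were chosen after their values were seen. Same-numbered libraries did not deviate together (correlations from -0.167 to 0.0662), so the numbers were not used as pairs. Alternatives were size factors (RLE), library totals, DESeq2 1.42.0, limma-voom, no filter, a stricter filter (mean CPM of 5 or more), the replicate block, removal of length and GC trends (splines with 5 degrees of freedom each), and each library left out. Library totals for single genes and for the other lists were added after seeing the data. No 2 libraries of a group were duplicates.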

Additional observations from a re-analysis of the deposited data

Results flagged for a closer look

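A response that differed between the lines, tested as the difference of log2 fold changes (PMJ2R minus ID8) in the edgeR fit of all 12 libraries, is what singled out these results. It was lower in PMJ2R cells for 67 of the genes and higher for 3. The named genes with a lower response were Mrpl22 (-1.74), Mrpl12 (-1.58), Mrpl20 (-1.34), Mrpl41 (-1.24), Mrps7 (-1.23), Mrps18b (-1.17), Mrpl58 (-1.14), Mrps12 (-1.10), Mrps26 (-1.09), Mrps23 (-1.08), Mrpl11 (-1.07), Mrps18c (-0.92), Mrps36 (-0.59), Mrps18a (-0.53), Mrpl45 (-0.45) and Mrps30 (-0.30). Those with a higher response were Mrpl24 (0.93), Mrps2 (0.38) and Mrpl48 (0.26). Over all genes tested the median difference was -0.10.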

How the results depend on the processing

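Causes of the following changes were not tested. With library totals, in ID8 cells 14 genes fell and the median was 0.46; in PMJ2R cells 16 rose, 46 fell and the median was -0.27; the median of PMJ2R against ID8 was -0.38 in rebastinib and 0.39 in control cells. Signs turned for 11 genes in ID8 and 30 in PMJ2R cells; these included Mrpl10 (-0.12), Mrpl45 (-0.35) and Mrps18b (-0.23) in ID8 and Mrpl10 (-0.41), Mrpl11 (-0.36), Mrps18a (-0.17) and Mrps36 (-0.25) in PMJ2R cells. With length and GC trends removed, alone and then with the replicate block, 11 and 10 fell in ID8 and 34 and 34 in PMJ2R cells. The medians were then 0.47 and 0.47 in ID8, 0.0863 and 0.0856 in PMJ2R, -0.545 and -0.541 for the difference, and, PMJ2R against ID8, -0.357 and -0.356 in rebastinib and 0.135 and 0.135 in control cells. Signs turned under these 2 for Mrps18b in ID8 (-0.334 and -0.333), Mrps18c (-0.364 and -0.358) and Mrps36 (-0.386 and -0.387) in PMJ2R, and Mrps18b in control cells (-0.00282 and -0.00110). The replicate block alone changed no count by more than 1.5 times; the numbers do not pair the libraries.

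Without an expression filter the PMJ2R median was 0.0800, Mrpl10 (-0.0597) and Mrpl11 (-0.00885) turned there, and 1 gene had a higher response in PMJ2R cells. At a mean of at least 5 CPM, 4 genes fell in ID8 cells and the PMJ2R median was 0.23. RLE factors gave a PMJ2R median of 0.33 and a median difference of -0.60, and DESeq2 a difference of -0.61. The summed share, rebastinib minus control, in PMJ2R cells was -0.0637 without ribosomal RNA overlapping and mitochondrially encoded genes and -0.0821 without Mrpl12, the gene with most counts; without it the small to large ratio there was -0.0131, turned from 0.000441. With each library left out in turn, 2 to 4 genes fell in ID8 cells, 1 to 3 had a higher response in PMJ2R cells, and the ratio of PMJ2R minus ID8 control cells lay between -0.00195 and 0.000488. Mrpl53, at 0 counts in every library, could not be measured.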
